A study of Homo sapiens with 8 samples.

Results

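The genes described are 38 genes of amino acid supply and amino acid stress, taken by symbol from the 61209 gene names in the deposited count table. They fall into 6 subgroups, namely 7 stress transcription factors, 5 stress effectors, 3 genes of asparagine and proline synthesis, 8 of the serine and folate pathway, 7 amino acid transporters and 8 cytosolic tRNA synthetases. All 38 were among the 22554 genes abundant enough to be tested. They were measured by RNA sequencing in H1, an established human embryonic stem cell line, that carries an Msx1-P2A-tdTomato reporter. The start of the protocol was common to all groups. On day 0 the medium held 50 ng/mL Activin A, 40 ng/mL BMP4, 10 ng/mL FGF2 and 6 µM CHIR99021, which inhibits GSK3, and the next medium held 60 ng/mL BMP4 and 1 µM CHIR99021. On day 4 the cells were made into pellets of 25000 cells. FGF8+10 pellets received FGF8 and FGF10, ligands of FGF receptors, at 500 ng/mL each, while the labels do not describe the medium of the Mock pellets. On day 8, Msx1-positive cells were sorted as Pdgfra-positive or Pdgfra-low, which gave 4 groups of 2 libraries. A single reporter line was used. The labels call the replicates biological but do not tie them to independent differentiation runs, so a p-value reflects only how far these libraries spread, which may be technical.

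Cells that run short of an amino acid, or whose protein folding or redox balance is disturbed, phosphorylate the translation factor eIF2. This lowers protein synthesis in general but favours translation of ATF4, a transcription factor that is also raised by the growth regulator mTORC1. ATF4 pairs with C/EBP family proteins on composite DNA elements and raises genes for amino acid uptake, for making asparagine, proline and serine, for the one-carbon units carried by folate, and for loading amino acids onto tRNA. Serine and one-carbon units feed nucleotide synthesis in dividing cells, and glycine and proline are the main residues of the collagens that mesenchymal cells secrete.

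Most of the 38 genes were lower with FGF8+10, and they were lowest in Pdgfra-positive cells. Summed over the set, the level was 2770 and 2777 CPM (read counts scaled to a common library size) in Pdgfra-positive cells with FGF8+10, and 3475 and 3482 CPM in Pdgfra-low cells with FGF8+10. With Mock it was 4909 and 4921 CPM in Pdgfra-positive and 5980 and 5977 CPM in Pdgfra-low cells, so no group overlapped another. SLC38A2, which rose with FGF8+10, and ATF4 weigh most in this sum. Their group means were 764.6 and 330.5 CPM in FGF8+10 Pdgfra-positive cells. By edgeR's quasi-likelihood test with Benjamini-Hochberg adjustment at 0.05 over all tested genes, 35 of 38 fell and 2 rose with FGF8+10 in Pdgfra-positive cells, where 25.1% of all tested genes were lower and 25.8% higher. In Pdgfra-low cells 35 fell and 2 rose as well, where the background was 27.7% lower and 27.9% higher. The 35 that fell were the same genes in both populations, and the 2 that rose in both were SHMT1 and SLC38A2. PSPH passed the test in neither. The median log2 fold change of the set was -1.18 in Pdgfra-positive and -1.05 in Pdgfra-low cells, against -0.01 and -0.02 over all tested genes. At least 2-fold reductions were found for 25 members in Pdgfra-positive and 20 in Pdgfra-low cells. The share of all tested genes at this 2-fold cutoff was not computed, so these 2 counts have no background beside them. The members were chosen with earlier results of these data known. Comparisons with all tested genes, here and below, are therefore not independent of that choice. Where a pair of values below names no population, the first is for Pdgfra-positive and the second for Pdgfra-low cells. In bulk RNA, fewer cells of a type and less RNA per cell cannot be told apart.

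The ordering of the 4 groups was the same for most of the set. In 31 of 38 genes the group means ran from Mock Pdgfra-low, the highest, through Mock Pdgfra-positive and FGF8+10 Pdgfra-low to FGF8+10 Pdgfra-positive, an order found in 7.48% of all tested genes. Mock Pdgfra-low was the highest group for 34 members, whereas it was the highest for 21.6% of all tested genes. FGF8+10 Pdgfra-positive was the lowest group for 33 members and for 22.8% of all tested genes. These shares, too, are not independent of how the members were chosen. The map of levels by library shows this as a gradient across its 4 blocks.

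**Figure D1:**
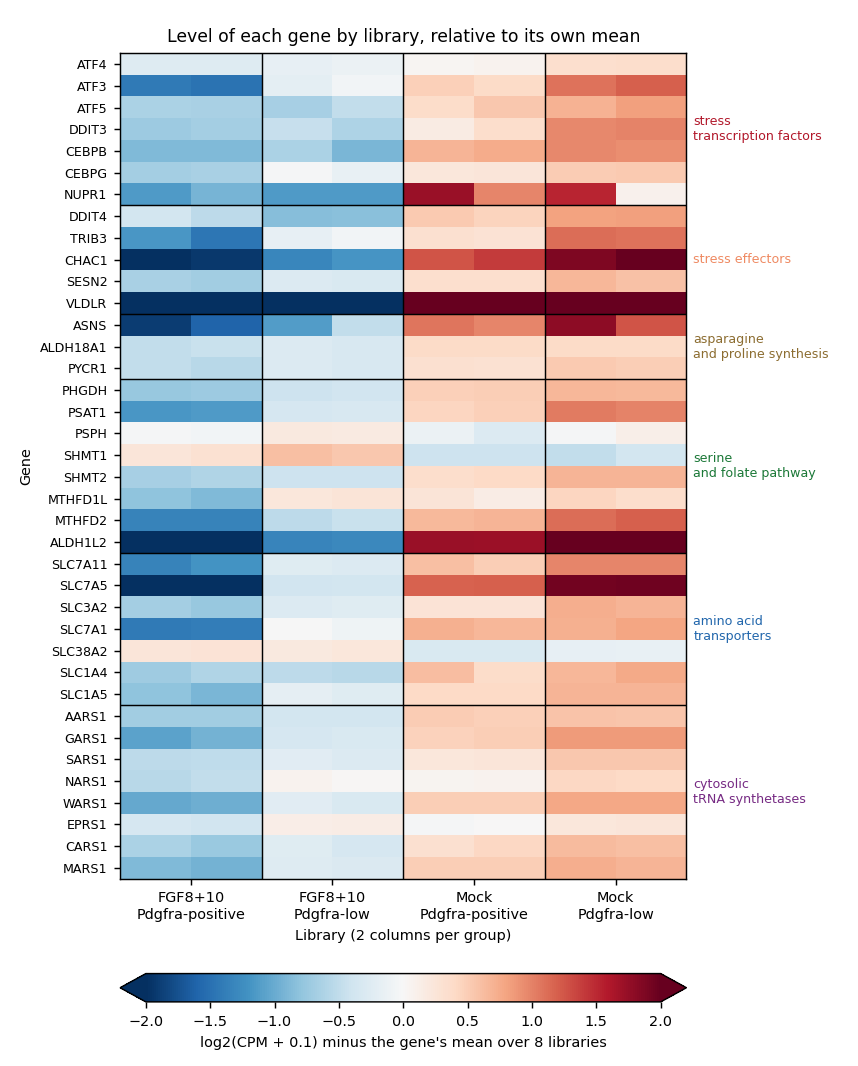
Level of each of the 38 genes (rows, by subgroup) in each of 8 libraries (columns, 2 per group), as log2(CPM + 0.1) minus the gene's mean over the 8 libraries, with colours ending at 2 in each direction. The mean of the FGF8+10 Pdgfra-positive columns is the lowest group mean for 33 genes, while SHMT1 and SLC38A2 run the other way; NUPR1 is near 0 CPM throughout.

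Depth ranged from 47698561 to 64390444 counts per library, with both mates of a read pair taken as counted, and 6 counts corresponded to 0.0883 to 0.134 CPM in 1 library. The gate genes MSX1 and PDGFRA were themselves higher with FGF8+10 (log2 fold changes 1.21 and 0.65 in Pdgfra-positive, 0.95 and 0.58 in Pdgfra-low cells), so altered expression within cells and a shift in the cells that passed the gate cannot be told apart. All 7 FGF and ERK response genes rose in both populations, ETV4 by 3.21 in Pdgfra-positive and 7.41 in Pdgfra-low cells on the log2 scale. Lateral plate and limb mesenchyme markers were found at unequal levels, with HAND2 group means of 345 to 473 CPM and PRRX1 group means of 144 to 273 CPM. Per kilobase of exon not shared with another gene, HAND2 had group means of 126 to 173 CPM and TBX5 only 0.664 to 0.899 CPM. On that scale FGF10 had 0.417 and 0.422 CPM in the Mock Pdgfra-positive and Pdgfra-low groups. Of these 8 markers, 5 were higher and 2 lower in Pdgfra-positive and 2 higher and 5 lower in Pdgfra-low cells, FGF10 rising (4.12 and 3.69) and TBX4 falling (-1.41 and -2.60). Several other lists moved with the treatment, and their part in the results was not tested. All 10 cell cycle genes rose in both populations (BUB1 by 1.49 and 2.01 on the log2 scale), with summed levels of 1653 and 1655 CPM in FGF8+10 Pdgfra-positive, 2510 and 2545 CPM in FGF8+10 Pdgfra-low, and 798 to 894 CPM in the Mock libraries. Cardiac muscle markers summed to between 3.95 and 4.67 CPM with FGF8+10 and between 51.6 and 69.4 CPM with Mock. TNNT2 made up most of the Mock sum. Of the 3 that were tested, 1 was lower and 2 not called in Pdgfra-positive and 2 lower and 1 not called in Pdgfra-low cells. TNNT2 was lower in both (-6.39 and -7.76). ACTN2 was not called in Pdgfra-positive (-0.19) and was lower in Pdgfra-low cells (-1.01), and NKX2-5 was not called (0.29 and 0.27). MYH6 and MYH7 were under 0.2 CPM in every group mean and TNNI3 was at 0. The 6 endothelial markers summed to 2123 to 2555 CPM with FGF8+10 and 1327 to 1369 CPM with Mock, mostly from KDR, and PECAM1 reached 18.5 CPM in FGF8+10 Pdgfra-low cells against 0.676 to 2.6 CPM in the other groups. Of these 6, 4 were higher and 1 lower (TIE1, -1.22) in Pdgfra-positive cells, and all 6 were higher in Pdgfra-low cells. The neural markers summed to at most 1.89 CPM, mostly from TUBB3, which was not called in Pdgfra-positive cells (0.14) and rose in Pdgfra-low cells (1.70). Of the pluripotency markers, POU5F1 and NANOG were under 0.1 CPM in every group, SOX2 was called lower in both populations, from Mock group means of 0.842 and 1.32 CPM to under 0.1 CPM, and LIN28A rose (1.96 and 2.38). The epithelial markers summed to 298 to 563 CPM with FGF8+10 and 476 to 652 CPM with Mock, mostly from KRT19, which fell (-0.83 and -0.69), and KRT18, which was not called in Pdgfra-positive (0.02) and rose in Pdgfra-low cells (0.98). Of these 5 markers, 3 were lower and 2 not called in Pdgfra-positive and 3 lower and 1 higher in Pdgfra-low cells. EPCAM was under 1 CPM in every group, and ESRP1 was at most 0.527 CPM in any group mean.

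The promoters of the set were searched for the composite C/EBP-ATF element, spelled TGATGNAA, on both strands of RefSeq windows (GRCh38.p14) that run from 250 bases before to 50 bases after an annotated start. Of the 38 members, 32 had a window, and 14 of these 32 held a match in at least 1 of their windows. Counted by window, 16 of 54 member windows (29.6%) held a match, against 3.62% of all 35116 windows. Counted by gene, the share was 43.8% of the 32 members and 4.46% of all 27305 gene symbols. Members of this set were chosen partly as known ATF4 targets, so this share is not independent of the choice. A match is a description of letters, not evidence of a bound site, and no match says only that these letters are not in this window. This was the only motif searched, and its 14 sites are shown because it is the element that ATF4 and C/EBP proteins are known to bind. Each is printed 5′ to 3′ on the strand that reads TGATGNAA, with the match in capitals and up to 8 neighbouring bases on each side.
ASNS, chr7:97872469-97872476, minus strand: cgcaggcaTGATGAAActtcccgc
GARS1, chr7:30594845-30594852, minus strand: tcggagcaTGATGAAAtcgccgcg
SLC7A1, chr13:29595674-29595681, minus strand: cgcactgcTGATGAAAcctggcgc
CHAC1, chr15:40953262-40953269, minus strand: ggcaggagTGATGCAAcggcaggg
CEBPG, chr19:33374071-33374078, plus strand: gcggcgtcTGATGCAAcctgccgg
MTHFD1L, chr6:150866357-150866364, plus strand: gccggctcTGATGCAAtcgcgccg
SLC1A4, chr2:64989392-64989399, minus strand: gctggagaTGATGCAAacgggagc
SLC1A5, chr19:46784904-46784911, minus strand: gaagtggcTGATGCAAgctgtcca
AARS1, chr16:70289686-70289693, plus strand: aacttggcTGATGCAActgcgaga
CARS1, chr11:3057418-3057425, plus strand: ctagaatcTGATGCAAccgccgcc
MARS1, chr12:57488064-57488071, minus strand: tccctcgcTGATGCAAccggaacc
NARS1, chr18:57621815-57621822, minus strand: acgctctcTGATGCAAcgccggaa
ATF3, chr1:212565216-212565223, plus strand: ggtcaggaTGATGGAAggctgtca
SLC3A2, chr11:62881736-62881743, minus strand: ggagcTGATGTAAggagtcct

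The most frequent form was TGATGCAA, in 9 of the 14 sites, and TGATGAAA was found in 3. Of the 14, 7 lay on the strand of the gene and 7 on the other, and 10 began within 100 bases of the start. Matches were found in 5 of the 8 cytosolic tRNA synthetases, 4 of the 6 transporters with a window, 2 of 6 stress transcription factors, 1 of 5 stress effectors, 1 of 2 asparagine and proline genes and 1 of 5 serine and folate genes. Of the tRNA synthetase genes outside the set, 2 of 8 cytosolic ones with a window (IARS1 and TARS1) and 1 of 14 mitochondrial ones (YARS2) held the letters. The 14 members with a match had a median log2 fold change of -1.22 in Pdgfra-positive and -0.95 in Pdgfra-low cells, with ranges of -3.42 to -0.58 and -3.22 to -0.16. The 18 with a window but no match had medians of -1.06 and -1.14, with ranges of -6.03 to 0.69 and -5.43 to 1.0. The difference was not tested.

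The 250 bases before 1 annotated start are printed along the gene for CHAC1, ASNS and ATF3. These are the members with values by library below whose match lies upstream of that start and whose changes were largest. For ATF3 it is a start near the 5′ end of a gene entry that runs from 212565334 to 212620777. Which start these cells used was not measured. Capitals mark the match, which for CHAC1 lies on the other strand and so reads TTGCATCA here, 209 bases before the start, while that of ASNS lies 68 and that of ATF3 191 bases before it. The ASNS promoter is known for an element that responds to amino acid supply.
CHAC1, chr15:40953221-40953470, plus strand: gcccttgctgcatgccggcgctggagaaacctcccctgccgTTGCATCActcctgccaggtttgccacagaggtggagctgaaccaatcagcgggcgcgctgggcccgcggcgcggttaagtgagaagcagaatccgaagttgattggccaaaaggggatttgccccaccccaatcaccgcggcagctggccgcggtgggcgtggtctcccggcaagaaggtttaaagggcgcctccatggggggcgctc
ASNS, chr7:97872409-97872658, minus strand: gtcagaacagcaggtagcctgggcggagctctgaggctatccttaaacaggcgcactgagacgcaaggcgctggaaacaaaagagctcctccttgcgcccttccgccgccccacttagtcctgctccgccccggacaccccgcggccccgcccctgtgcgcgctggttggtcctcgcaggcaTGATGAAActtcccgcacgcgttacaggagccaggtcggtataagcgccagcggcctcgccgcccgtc
ATF3, chr1:212565157-212565406, plus strand: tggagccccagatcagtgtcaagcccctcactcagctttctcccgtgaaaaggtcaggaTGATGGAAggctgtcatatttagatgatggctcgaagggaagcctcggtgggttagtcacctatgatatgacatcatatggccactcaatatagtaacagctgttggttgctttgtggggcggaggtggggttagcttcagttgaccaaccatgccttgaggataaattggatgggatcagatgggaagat

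All 7 stress transcription factors fell with FGF8+10 in both populations, and ATF4 itself fell least. ATF4 (chromosome 22, 39519695 to 39522683) stood at 330 and 331 CPM in FGF8+10 Pdgfra-positive, 352 and 364 CPM in FGF8+10 Pdgfra-low, 406 and 413 CPM in Mock Pdgfra-positive and 498 and 506 CPM in Mock Pdgfra-low libraries. The 4 groups did not overlap, yet the step between neighbouring groups was small. The log2 fold change of ATF4 with FGF8+10 was -0.31 ± 0.024 (SE) in Pdgfra-positive and -0.49 ± 0.023 in Pdgfra-low cells (adjusted p = 1.21e-15 and 7.27e-23). ATF4 is regulated largely at translation, which these mRNA levels do not measure. Per kilobase of exon not shared with another gene, it had the highest value of all members in every group. Its group means were 127 to 192 CPM per kb. The length covers all annotated exons of a gene and not those of the transcripts in these cells. Ratios between genes are therefore read below only for how they change between groups.

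ATF3, a stress-induced repressor and activator of the same family, stood at 8.16 and 7.76 CPM in FGF8+10 Pdgfra-positive libraries, 19.0 and 21.1 CPM in FGF8+10 Pdgfra-low libraries, and 30.6 and 28.4 CPM and 46.7 and 50.0 CPM in the Mock libraries of the same populations. Each group was separate, with a clear further drop in the Pdgfra-positive cells under FGF8+10. It fell by 1.89 ± 0.078 and 1.27 ± 0.069 on the log2 scale. CEBPB, a C/EBP partner, stood at 15.9 CPM in each FGF8+10 Pdgfra-positive library and at 18.8 and 15.5 CPM in their Pdgfra-low counterparts, against 46.9 and 49.4 CPM and 57.2 and 55.8 CPM with Mock. Here the FGF8+10 groups overlapped each other and lay well below both Mock groups. The log2 fold change was -1.60 ± 0.067 in Pdgfra-positive and -1.72 ± 0.067 in Pdgfra-low cells.

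CEBPG, the C/EBP protein that dimerises with ATF4, had log2 fold changes of -0.91 ± 0.047 and -0.61 ± 0.045 in the Pdgfra-positive and Pdgfra-low cells. ATF5, another factor translated under stress, had -1.11 ± 0.077 and -1.34 ± 0.076, and DDIT3 (CHOP), the factor tied to prolonged stress, had -0.98 ± 0.12 and -1.53 ± 0.11. DDIT3 was counted on part of its exons, since 39.6% of its exon bases also lie in exons of other genes, mainly MARS1, and a read that met 2 genes was not counted. NUPR1, a small chromatin protein gene induced by stress, was near the detection limit, at 0.627 and 0.332 CPM in Mock Pdgfra-positive and 0.526 and 0.132 CPM in Mock Pdgfra-low libraries. Under FGF8+10 it had 1 count in the Pdgfra-positive group against 44 with Mock, a ratio of 64.2. The exact binomial 95% interval was 5.19 to 1330 over read pairs. It took 2 counts as 1 pair but the single count as a whole pair, so it is not centred on that ratio. In Pdgfra-low cells it had 0 counts against 40 with Mock, which makes it at least 6.14-fold lower when 6 counts over the group are taken as the detection floor. These intervals cover counting error only. At its bound NUPR1 was still the most reduced of the 7 factors, so their median of -1.11 and -1.34 could not move.

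Among the stress effectors, the products that carry out the response, all 5 fell in both populations, and VLDLR and CHAC1 were the most reduced. VLDLR, a lipoprotein receptor that is a known ATF4 target (chromosome 9, 2621182 to 2660056), stood at 3.6 and 3.11 CPM in FGF8+10 Pdgfra-positive and at 5.17 and 5.75 CPM in FGF8+10 Pdgfra-low libraries. In the Mock libraries it stood at 226 and 213 CPM in Pdgfra-positive and 238 and 233 CPM in Pdgfra-low cells. The FGF8+10 and Mock libraries were far apart, and the 2 Mock groups were close to each other without overlapping. VLDLR was 65.5-fold lower in Pdgfra-positive cells (log2 fold change -6.03 ± 0.054, adjusted p = 3.27e-51) and 43-fold lower in Pdgfra-low cells (-5.43 ± 0.052, adjusted p = 1.91e-50).

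CHAC1, which degrades glutathione (chromosome 15, 40952962 to 40956512), stood at 1.27 and 1.44 CPM in FGF8+10 Pdgfra-positive and 2.26 and 2.49 CPM in FGF8+10 Pdgfra-low libraries, against 13.8 and 15.4 CPM and 21.2 and 23.1 CPM with Mock. The 4 groups did not overlap. It was 10.7-fold and 9.31-fold lower in the Pdgfra-positive and Pdgfra-low cells. TRIB3, a pseudokinase that feeds back on ATF4, stood at 6.47 and 5.30 CPM and at 13 and 14 CPM in the Pdgfra-positive and Pdgfra-low libraries under FGF8+10, and at 18.2 and 17.9 CPM and 31.8 and 31.2 CPM with Mock. Its groups were again fully separate, in the same order as those of ATF3. The log2 fold changes of TRIB3 were -1.62 ± 0.095 and -1.22 ± 0.085.

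SESN2, a leucine sensor that restrains mTORC1, was 2.01-fold lower in the Pdgfra-positive and 1.9-fold lower in the Pdgfra-low cells. DDIT4 (REDD1), another inhibitor of mTORC1 that also responds to hypoxia, had log2 fold changes of -0.93 ± 0.040 and -1.67 ± 0.041. DDIT4 was the only member called higher in Pdgfra-positive than in Pdgfra-low cells under FGF8+10 (0.40 ± 0.043), while with Mock it was lower there (-0.33 ± 0.039). Hypoxia response genes, 12 in all, moved with it in part, with 8 lower and 1 higher in Pdgfra-positive and 6 lower and 4 higher in Pdgfra-low cells. VEGFA was the most reduced (-4.04 and -4.19), and ADM rose (2.29 and 3.34). Their part in the result was not tested.

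**Figure D2:**
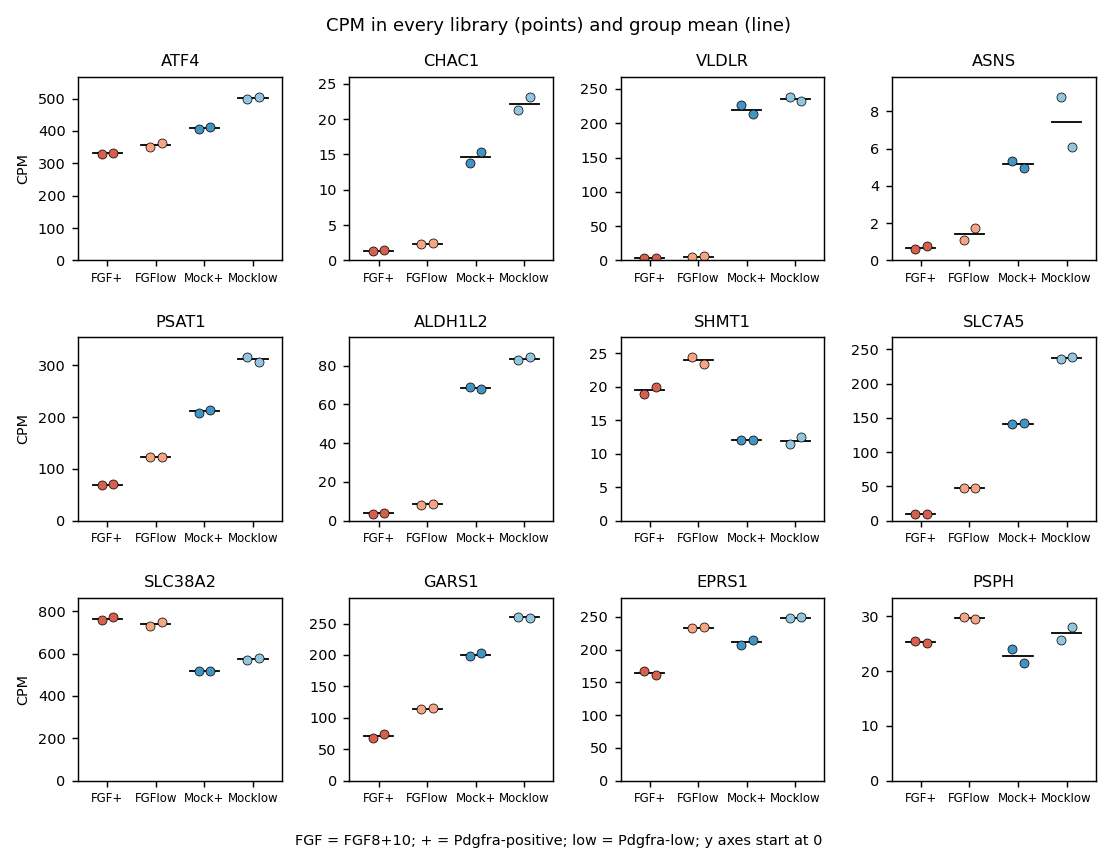
CPM (y axes, each from 0) in every library (points) and group means (lines) for 12 genes from the 6 subgroups, with FGF8+10 groups in red and Mock groups in blue. CHAC1, VLDLR, ALDH1L2 and SLC7A5 lie far lower in all FGF8+10 libraries than in all Mock libraries, SHMT1 and SLC38A2 lie higher, and in PSPH and EPRS1 the ranges of the FGF8+10 and Mock libraries overlap.

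The 3 genes of asparagine and proline synthesis fell in both populations. ASNS, asparagine synthetase (chromosome 7, 97851677 to 97872542), stood at 0.592 and 0.751 CPM in FGF8+10 Pdgfra-positive, 1.09 and 1.74 CPM in FGF8+10 Pdgfra-low, 5.31 and 4.98 CPM in Mock Pdgfra-positive and 8.77 and 6.07 CPM in Mock Pdgfra-low libraries. All FGF8+10 libraries of ASNS were below all Mock libraries, while the 2 Mock groups were close, at 4.98 and 5.31 against 6.07 and 8.77 CPM. Its log2 fold change was -2.93 ± 0.23 in the Pdgfra-positive and -2.38 ± 0.21 in the Pdgfra-low cells (adjusted p = 6.45e-15 and 1.35e-13). The level of ASNS is a low estimate, because 49.3% of its exon bases also lie in exons of an overlapping gene entry (ENSG00000284707) and a read that met both was not counted. Between 40 and 534 counts per library were assigned to ASNS and between 31 and 73 to the overlapping entry.

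ALDH18A1, which makes the first committed intermediate of proline, stood at 83.6 and 85.8 CPM in FGF8+10 Pdgfra-positive and 97.7 and 93.9 CPM in FGF8+10 Pdgfra-low libraries, against 154 and 153 CPM in each Mock group. The Mock populations overlapped for this gene, whereas the FGF8+10 populations did not overlap. It fell by 0.85 ± 0.033 and 0.68 ± 0.033 on the log2 scale. PYCR1, which completes proline in mitochondria, stood at 58.0 and 55.2 CPM and at 67.5 and 65.3 CPM with FGF8+10, whereas the Mock libraries held 102 and 101 CPM and 118 and 114 CPM. Its groups did not overlap, and its log2 fold changes of -0.84 ± 0.039 and -0.80 ± 0.039 differed by -0.04 ± 0.055 between the populations, which was not called. Of its exon bases, 29.7% are shared with other entries.

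The 6 other genes measured that handle proline, glutamine or asparagine were mixed, with 4 lower and 1 higher in Pdgfra-positive and 3 lower and 2 higher in Pdgfra-low cells. GLUL, glutamine synthetase, fell by 0.77 and 0.75 on the log2 scale, a gene named after its values were seen. PRODH, the first enzyme of proline breakdown, had 1 count under FGF8+10 against 18 with Mock in Pdgfra-positive cells, a ratio of 26.3. Its exact binomial 95% interval, 1.82 to 576, was computed over pairs with the single count taken as 1 pair. The interval is therefore not centred on that ratio. In Pdgfra-low cells PRODH had 0 counts against 34, at least 5.21-fold lower.

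In the serine and folate pathway, 6 of 8 genes fell, SHMT1 rose and PSPH was not called, in both populations alike. The enzymes of serine synthesis act in the order PHGDH, PSAT1 and PSPH. PHGDH, the entry step, had log2 fold changes of -1.23 ± 0.026 in Pdgfra-positive and -1.06 ± 0.026 in Pdgfra-low cells. PSAT1, the aminotransferase (chromosome 9, 78297125 to 78330093), stood at 68.3 and 70.4 CPM in FGF8+10 Pdgfra-positive, 122 and 123 CPM in FGF8+10 Pdgfra-low, 208 and 214 CPM in Mock Pdgfra-positive and 316 and 307 CPM in Mock Pdgfra-low libraries. Every group was separate, in the order of the whole set, and the log2 fold changes of PSAT1 were -1.60 ± 0.031 and -1.35 ± 0.029. PSPH, the last step, had 25.5 and 25.1 CPM, 29.8 and 29.5 CPM, 24.1 and 21.4 CPM, and 25.6 and 28.1 CPM in the same order of groups. Its log2 fold change was 0.15 ± 0.071 (adjusted p = 0.0687) in Pdgfra-positive and 0.14 ± 0.069 (adjusted p = 0.0749) in Pdgfra-low cells, so no change was called. It was called higher in Pdgfra-positive cells without Mock Pdgfra-positive replicate 1 (0.24) and in Pdgfra-low cells without Mock Pdgfra-low replicate 2 (0.21). Per kilobase of unshared exon, the ratio of PSAT1 to PSPH was 10.8 to 15.4 in Mock and 3.36 to 5.2 in FGF8+10 libraries.

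Serine is split to glycine and a one-carbon unit by SHMT2 in mitochondria and by SHMT1 in the cytosol, and these 2 genes changed in opposite directions. SHMT2 had log2 fold changes of -1.01 ± 0.032 and -1.08 ± 0.031 in Pdgfra-positive and Pdgfra-low cells. SHMT1 (chromosome 17, 18327860 to 18363563) stood at 18.9 and 20.0 CPM and at 24.4 and 23.4 CPM in the Pdgfra-positive and Pdgfra-low libraries under FGF8+10, against 12 and 12.1 CPM and 11.4 and 12.4 CPM with Mock. All FGF8+10 libraries were above all Mock libraries, and the Mock groups overlapped. SHMT1 rose by 0.69 ± 0.086 (adjusted p = 2.5e-09) and by 1.00 ± 0.084 (adjusted p = 2.38e-14) on the log2 scale. The ratio of SHMT2 to SHMT1 per kilobase went from between 23.2 and 30.7 in the Mock libraries to between 6.77 and 7.29 in the FGF8+10 libraries.

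ALDH1L2 and MTHFD2, both mitochondrial folate enzymes, were the most reduced of the pathway. ALDH1L2, which oxidises mitochondrial formyl-folate and yields NADPH (chromosome 12, 105019784 to 105107643), stood at 3.63 and 4.05 CPM in FGF8+10 Pdgfra-positive and 8.26 and 8.41 CPM in FGF8+10 Pdgfra-low libraries. With Mock it stood at 69.0 and 68.1 CPM and at 82.9 and 84.5 CPM. The groups were widely separate, and ALDH1L2 was 17.9-fold lower in the Pdgfra-positive and 10-fold lower in the Pdgfra-low cells (adjusted p = 1.69e-40 and 1.61e-38). MTHFD2, the mitochondrial methylene-folate dehydrogenase of embryonic and dividing cells, stood at 35.3 and 35.5 CPM and at 62.1 and 65.5 CPM with FGF8+10, whereas the Mock libraries held 141 and 143 CPM and 195 and 205 CPM. Its groups did not overlap, and it was 4.01-fold and 3.14-fold lower. MTHFD1L, which releases formate from mitochondria, fell by 1.06 ± 0.059 on the log2 scale in Pdgfra-positive cells but only by 0.16 ± 0.055 in Pdgfra-low cells (adjusted p = 0.014), a call that was lost without FGF8+10 Pdgfra-low replicate 1 or Mock Pdgfra-low replicate 1 (adjusted p = 0.0803 and 0.156).

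Of 15 other one-carbon and glycine genes, 5 were higher and 5 lower in Pdgfra-positive and 6 higher and 2 lower in Pdgfra-low cells, with medians of -0.05 and 0.02. MTHFD1, the cytosolic counterpart of MTHFD2 and MTHFD1L, rose (log2 fold changes 0.36 and 0.67). The ratio of MTHFD2 to MTHFD1 per kilobase was 8.69 to 10.3 in Mock and 1.69 to 2.01 in FGF8+10 libraries. TYMS, which makes thymidylate, rose by 0.94 in Pdgfra-positive and by 1.19 in Pdgfra-low cells. MTHFD1 and TYMS were named after their values were seen, and the cell cycle genes rose with them. GCSH, a glycine cleavage subunit, had -0.65 and -0.22, and GLDC, whose group means were at most 0.157 CPM, was not called (1.42 and -0.92).

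Among the amino acid transporters, 6 of 7 fell and SLC38A2 rose, again in both populations. SLC7A5, the large neutral amino acid exchanger LAT1 (chromosome 16, 87830023 to 87869507), stood at 9.15 and 9.05 CPM in FGF8+10 Pdgfra-positive, 47.2 and 47.8 CPM in FGF8+10 Pdgfra-low, 140 and 142 CPM in Mock Pdgfra-positive and 236 and 239 CPM in Mock Pdgfra-low libraries. Replicates were nearly equal, and every step between groups was large. SLC7A5 was 15.5-fold lower with FGF8+10 in Pdgfra-positive and 5.01-fold lower in Pdgfra-low cells (adjusted p = 8.9e-48 and 2.43e-42). SLC3A2, the heavy chain that SLC7A5 and SLC7A11 need at the membrane, fell less, with log2 fold changes of -0.99 ± 0.034 and -0.96 ± 0.033. The ratio of SLC7A5 to SLC3A2 per kilobase was 1.36 to 1.74 in the Mock libraries and 0.662 in each FGF8+10 Pdgfra-low library. In the FGF8+10 Pdgfra-positive libraries it was 0.171 and 0.179. As lengths cover all annotated exons, only the change of this ratio between groups is read.

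SLC7A11, the cystine importer, stood at 12 and 13.3 CPM and at 25.9 and 25.1 CPM in the Pdgfra-positive and Pdgfra-low libraries under FGF8+10, and at 46.1 and 42.8 CPM and 60.0 and 60.3 CPM with Mock. Its groups did not overlap, and the log2 fold changes were -1.81 ± 0.065 and -1.24 ± 0.060. SLC7A1, the importer of arginine and lysine, stood at 24.4 and 24.9 CPM in FGF8+10 Pdgfra-positive and 64.8 and 61.5 CPM in FGF8+10 Pdgfra-low libraries, against 107 and 104 CPM and 107 and 112 CPM with Mock. The Mock populations overlapped (log2 difference -0.06 ± 0.040, adjusted p = 0.367), whereas the FGF8+10 populations were far apart. SLC7A1 was 4.27-fold lower in Pdgfra-positive and 1.73-fold lower in Pdgfra-low cells.

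The glutamine and small neutral amino acid carrier SLC38A2 (SNAT2), which is known to rise when amino acids are scarce, stood at 758 and 771 CPM in FGF8+10 Pdgfra-positive and 730 and 749 CPM in FGF8+10 Pdgfra-low libraries. With Mock it stood at 516 and 519 CPM and at 568 and 578 CPM. All FGF8+10 libraries were above all Mock libraries, so this gene, the only transporter of the set to do so, rose by 0.56 ± 0.021 and 0.37 ± 0.021 on the log2 scale (adjusted p = 1.15e-26 and 5.35e-20). The exchangers SLC1A4 and SLC1A5 for serine, alanine and glutamine fell by 1.17 ± 0.10 and 1.26 ± 0.032 in Pdgfra-positive cells and by 1.26 ± 0.10 and 0.89 ± 0.031 in Pdgfra-low cells. Of 13 other amino acid transporters, 8 were lower and 2 higher in Pdgfra-positive and 7 lower and 2 higher in Pdgfra-low cells. SLC6A9, a glycine transporter, had the largest mean reduction over both populations (-1.90 and -2.14), and SLC7A7, a light chain for cationic amino acids, rose (0.64 and 0.55).

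Cytosolic tRNA synthetases attach amino acids to their tRNAs, and all 8 members fell in both populations. GARS1, the glycine enzyme (chromosome 7, 30580533 to 30634033), stood at 68.4 and 74.4 CPM in FGF8+10 Pdgfra-positive, 114 and 116 CPM in FGF8+10 Pdgfra-low, 199 and 203 CPM in Mock Pdgfra-positive and 260 and 259 CPM in Mock Pdgfra-low libraries. The groups did not overlap, and GARS1 was 2.81-fold and 2.26-fold lower with FGF8+10. WARS1, the tryptophan enzyme, which interferon also induces, stood at 43.2 and 44.8 CPM and at 74.9 and 71.2 CPM with FGF8+10, against 123 CPM in each Mock Pdgfra-positive library and 151 and 150 CPM in the Mock Pdgfra-low libraries. MARS1, the methionine enzyme, stood at 85.2 and 80.8 CPM and at 131 and 128 CPM with FGF8+10, whereas the Mock libraries held 219 and 220 CPM and 258 and 252 CPM. Both genes kept all 4 groups apart, and their log2 fold changes were -1.48 ± 0.038 and -1.40 ± 0.031 in Pdgfra-positive and -1.04 ± 0.036 and -0.98 ± 0.030 in Pdgfra-low cells.

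The remaining members were AARS1 (alanine), CARS1 (cysteine), SARS1 (serine), NARS1 (asparagine) and EPRS1 (glutamate and proline). In Pdgfra-positive cells their log2 fold changes were -1.18, -1.05, -0.75, -0.58 and -0.36, and in Pdgfra-low cells -0.93, -0.92, -0.80, -0.36 and -0.09. EPRS1 was the least changed, at 167 and 162 CPM, 233 and 234 CPM, 208 and 214 CPM, and 248 and 249 CPM in the order of groups used above. Its FGF8+10 Pdgfra-low libraries lay between the Mock groups, and with scaling by library totals its change in Pdgfra-low cells was called in the other direction (0.07, adjusted p = 0.03 by edgeR).

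The other tRNA synthetases had medians nearer 0, and the lists were not tested against each other. The members and the lists were chosen with earlier results of these data known, so the gap is not independent of that choice. Of 12 further cytosolic synthetase genes, 9 were lower and 2 higher in Pdgfra-positive cells, with a median of -0.32, and 6 were lower and 4 higher in Pdgfra-low cells, with a median of -0.06. IARS1, for isoleucine, fell by 1.36 and 0.91 on the log2 scale, within the range of the 8 members. YARS1, for tyrosine, named after its values were seen, fell by 1.23 and 0.92. Of 17 mitochondrial synthetase genes, 7 were lower and 3 higher in Pdgfra-positive cells (median -0.10) and 4 lower and 6 higher in Pdgfra-low cells (median 0.08). MARS2 changed in opposite directions, -0.68 and 0.83, and YARS2 fell by 0.62 and 0.56. The medians of the 8 members were -1.12 and -0.92.

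**Figure D3:**
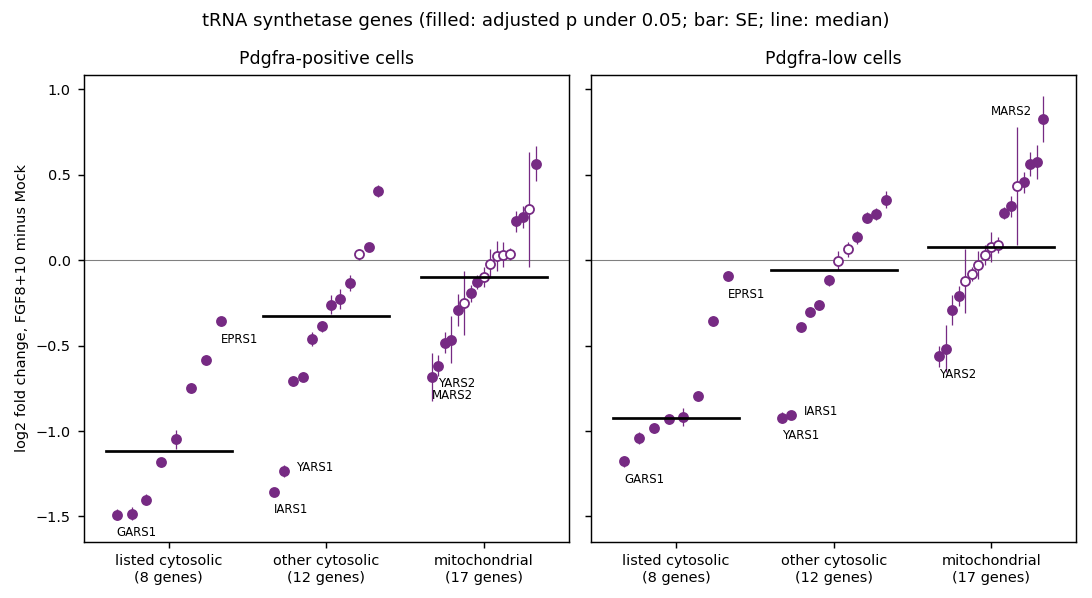
Log2 fold change with FGF8+10 against Mock (y axis) in Pdgfra-positive (left) and Pdgfra-low (right) cells for the 8 cytosolic tRNA synthetases of the set, 12 other cytosolic and 17 mitochondrial ones. The set and the lists were chosen with earlier results of these data known. Each point is a gene with its SE, filled where it passed the test, and lines are medians, which lie at -1.12, -0.32 and -0.10 on the left and at -0.92, -0.06 and 0.08 on the right.

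Genes placed upstream of ATF4 or on other branches of the stress response were mixed. Of 8 genes of the eIF2 kinases, their partners and the eIF2 phosphatase, 5 were lower and 1 higher in Pdgfra-positive and 4 lower and 2 higher in Pdgfra-low cells. EIF2AK3 (PERK), the kinase of the endoplasmic reticulum, fell by 0.55 and 0.59 on the log2 scale, and PPP1R15A (GADD34), the phosphatase subunit that is itself induced by ATF4, rose by 0.69 and 0.72. EIF2AK4 (GCN2), the kinase that senses uncharged tRNA, named after its values were seen, had -0.14 (called lower) and 0.05 (not called). Of 15 chaperone and folding genes of the ATF6 and XBP1 branches, 7 were lower and 6 higher in Pdgfra-positive and 5 lower and 8 higher in Pdgfra-low cells. HERPUD1 fell by 1.27 and 1.38, and SDF2L1 rose by 0.34 and 0.90. Of 9 tested ATF4 targets outside the set, 7 were lower and 2 not called in Pdgfra-positive and 7 lower and 1 higher in Pdgfra-low cells. PCK2, the mitochondrial PEP carboxykinase, fell by 1.5 and 1.71 on the log2 scale, and GDF15, a stress cytokine gene, was not called in Pdgfra-positive cells (-0.79) and rose by 1.5 in Pdgfra-low cells. FGF21, the tenth, had no count in any library.

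The sorted populations also differed within each treatment. With Mock, 32 of 38 members were lower in Pdgfra-positive than in Pdgfra-low cells and the other 6 were not called (background 13.4% lower and 12.4% higher), with a median log2 difference of -0.29. With FGF8+10, 31 were lower and 1 higher (background 21.7% and 19.6%), with a median of -0.48. The higher ones numbered 2 without FGF8+10 Pdgfra-low replicate 2. Both treatments called 27 of the members lower. SLC7A5 had the largest called difference under FGF8+10, -2.38 ± 0.047 with FGF8+10 and -0.75 ± 0.033 with Mock. SLC7A1, ATF3 and TRIB3 had -1.36, -1.33 and -1.20 with FGF8+10, and -0.06, -0.71 and -0.80 with Mock. With FGF8+10, 8 members were at least 2-fold lower in Pdgfra-positive than in Pdgfra-low cells, and with Mock none of the 38 were. No share of all tested genes was computed for this cutoff or for the overlap of 27. Over all tested genes, too, a larger share was called lower with FGF8+10 (21.7%) than with Mock (13.4%). The gate was set on Pdgfra, and these comparisons share libraries with those of FGF8+10 against Mock.

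The change with FGF8+10 was then compared between the populations with an interaction term. For 20 members it was more negative in Pdgfra-positive cells and for 4 more positive, where 14% and 12% of all tested genes were called in these directions. The difference was largest for SLC7A5 (-1.63 ± 0.058, adjusted p = 1.74e-26), SLC7A1 (-1.30 ± 0.061, adjusted p = 5.53e-22), MTHFD1L (-0.90 ± 0.080, adjusted p = 1.19e-12) and ALDH1L2 (-0.83 ± 0.10, adjusted p = 5.35e-09). All 4 had the more negative change in Pdgfra-positive cells, and the small change of MTHFD1L in Pdgfra-low cells was not called without FGF8+10 Pdgfra-low replicate 1 or without Mock Pdgfra-low replicate 1. DDIT4 (0.73 ± 0.058, adjusted p = 2.29e-14) and DDIT3 (0.55 ± 0.16, adjusted p = 0.00853) fell more in Pdgfra-low cells, as did ATF4 (0.18 ± 0.033). SLC38A2 rose more in Pdgfra-positive cells (0.19 ± 0.030). Of the synthetases, 6 of 8 had a called difference, from -0.23 for NARS1 to -0.44 for WARS1. CHAC1 and ASNS were not called (-0.21 ± 0.19 and -0.55 ± 0.32), and nor was SHMT1 (-0.31 ± 0.12, adjusted p = 0.0511).

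**Figure D4:**
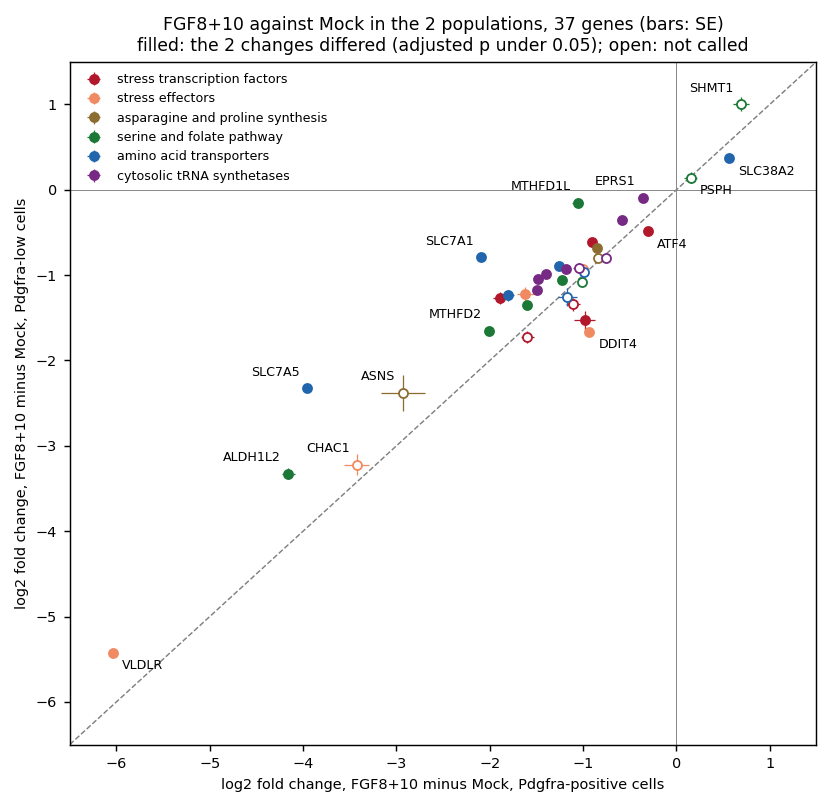
Log2 fold change with FGF8+10 against Mock in Pdgfra-positive (x axis) and Pdgfra-low cells (y axis) for 37 genes, with SE bars and colours by subgroup, and with NUPR1 left out as it is near 0 CPM. Filled points had a called difference between the populations. Points above the dashed line of equal change, such as SLC7A5 (-3.96 and -2.32) and SLC7A1 (-2.09 and -0.79), have a more negative change in Pdgfra-positive cells, and DDIT4 (-0.93 and -1.67) lies below it.

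The directions depend little on scaling for the genes with large changes. Scaled by library totals in place of TMM, the median of all tested genes moved to 0.16 in Pdgfra-positive and 0.15 in Pdgfra-low cells, with 8164 genes higher and 3991 lower and with 8113 higher and 4672 lower. The median of the set was then -1.0 and -0.89. Of the members, MTHFD1L and EPRS1 changed sign under that scaling, both in Pdgfra-low cells, and PSPH was called higher in both populations (0.33 and 0.30).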

How the data were processed

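The authors deposited a table of raw counts per gene name for 8 libraries of 4 groups. The submitters' processing notes name FastQC 0.11.8, HISAT2 2.1.0 as the aligner and GRCh38 as the build. Per the file headers, exon reads were counted with featureCounts 2.0.3 on GENCODE release 42. The header names no pair counting option and sets no strand, so both mates were taken as counted, without strand. Reads over more than 1 gene were left out. A member that shares exons with another entry was therefore counted on its remaining exon bases: 19 of 38 members share none, and 3 (DDIT3, ASNS and PYCR1) share over 25%. Read trimming is not given in the sources here.

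The tests used edgeR 4.0.16 under R 4.3.3 (TMM, filterByExpr, robust quasi-likelihood fit over all 8 libraries with 4 residual degrees of freedom, 5 two-sided contrasts), with adjustment over 22554 genes. An SE is the log2 fold change divided by the root of its F statistic. CPM are counts over the TMM-scaled library size. Counts were also simulated for the comparison of FGF8+10 with Mock in Pdgfra-positive cells. They covered 22554 genes, few of them changed and all with the same spread. Of the changed genes, 78% with a 2-fold and 92% with a 4-fold change were recovered. In the data 25.8% of tested genes were called higher and 25.1% lower, so these shares may not hold there. DESeq2 1.42.0, other scalings and filters, a replicate block and leaving out each library were the alternatives. Promoters were read with Python 3 from RefSeq windows, which 6 members lack.

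The members, their subgroups and the 18 comparison lists (160 genes) were chosen with earlier results of these data known. Values by library are given for the 3 members of each subgroup with the largest mean absolute change over both FGF8+10 contrasts, and for members called against most of their subgroup. ATF4, PSPH and EPRS1 were added after their values were seen. Of each comparison list, the gene with the largest change on each side is named, except for a few results that are not reported here.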

Additional observations from a re-analysis of the deposited data

Results flagged for a closer look

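For 24 of the 38 genes the change with FGF8+10 differed between Pdgfra-positive and Pdgfra-low cells by the interaction term of the edgeR fit (Benjamini-Hochberg adjusted p under 0.05 over all tested genes). The values are differences of log2 fold changes, Pdgfra-positive minus Pdgfra-low. Among the transcription factors they were 0.18 for ATF4, 0.55 for DDIT3, -0.62 for ATF3 and -0.30 for CEBPG. Among the effectors they were 0.73 for DDIT4, -0.40 for TRIB3 and -0.61 for VLDLR, and in proline synthesis -0.18 for ALDH18A1. In the serine and folate pathway they were -0.17 for PHGDH, -0.26 for PSAT1, -0.90 for MTHFD1L, -0.35 for MTHFD2 and -0.83 for ALDH1L2. Among the transporters they were -0.57 for SLC7A11, -1.63 for SLC7A5, -1.30 for SLC7A1, 0.19 for SLC38A2 and -0.37 for SLC1A5. Among the synthetases they were -0.25 for AARS1, -0.31 for GARS1, -0.23 for NARS1, -0.44 for WARS1, -0.27 for EPRS1 and -0.42 for MARS1. The sorted populations also differed in the summed cell cycle level (1653 and 1655 CPM in Pdgfra-positive and 2510 and 2545 CPM in Pdgfra-low libraries under FGF8+10), and its part in these differences was not tested.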

How the results depend on the processing

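Of 1138 member fold changes recomputed under the alternatives, 1129 kept their direction and side of the threshold. Scaling by library totals reversed MTHFD1L (0.0056) and EPRS1 (0.0673) in Pdgfra-low cells, and raised the members called higher there from 2 to 4. PSPH passed the threshold under library totals, in Pdgfra-positive cells also without a filter on low counts (0.17) or without Mock Pdgfra-positive replicate 1 (0.24), and in Pdgfra-low cells without Mock Pdgfra-low replicate 2 (0.21). MTHFD1L in Pdgfra-low cells was not called without FGF8+10 Pdgfra-low replicate 1 (-0.14) or Mock Pdgfra-low replicate 1 (-0.12). Members higher in Pdgfra-positive than in Pdgfra-low cells under FGF8+10 numbered 2 with a filter of at least 1 CPM in 2 libraries, 2 with the replicate block, and 1 to 2 with a library left out, the 2 arising without FGF8+10 Pdgfra-low replicate 2. Same-numbered libraries of different groups did not deviate together over all tested genes (correlations of -0.0122 to 0.0188). Counting error can hide a weak pairing in such a check, so it cannot show that the samples are unpaired. The replicate block left the calls of members with FGF8+10 at 35 lower and 2 higher in each population. The filter of 1 CPM left NUPR1 untested. Leaving out a library leaves a group with 1 library, which is then assumed to vary like the others. With 2 libraries per group and a common biological coefficient of variation of 4.06%, low counts limited the precision for NUPR1, ASNS and the lists' genes near 0 CPM.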
